A study of Mus musculus with 15 samples.

Results

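The V genes of the T cell receptor alpha chain (Trav) and beta chain (Trbv) were described by their read counts in RNA from transferred CD4+ T cells. Members were all genes whose symbol in GENCODE begins with Trav or Trbv, which gave 163 of the 55421 genes counted. Of these, 128 were Trav genes on chromosome 14 (52427928 to 53977678, GRCm38) and 35 were Trbv genes on chromosome 6 (40891229 to 41558452). The annotation called 20 of the Trav genes and 13 of the Trbv genes pseudogenes. Usage of a gene was its share of all Trav or all Trbv reads of the sample.

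The donors were C57BL/6 mice aged 6 to 8 weeks that carried either Prkaa1 fl/fl (WT) or Prkaa1 fl/fl with CD4-Cre (KO), so both genotypes carried the floxed Prkaa1 allele, the gene of a catalytic alpha subunit of AMPK. The Cre is driven from Cd4 and acts first at the thymocyte stage at which CD4 and CD8 are both present, so deletion comes after the beta chain has been rearranged. Naive CD4+ T cells were injected into Rag2-/- recipients, which make no T or B cells of their own, and CD4+ T cells were isolated 6 weeks later by sorting cells of spleen and of mesenteric lymph nodes (mLN), in the course of transfer colitis. There were 4 WT spleen, 4 KO spleen, 3 WT mLN (replicates 1, 2 and 4) and 4 KO mLN samples. The study describes the replicates of a group as separate mice of a single experiment. The labels do not say whether a spleen and an mLN sample with the same number came from 1 recipient.

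A T cell receptor chain is assembled in the thymus by joining 1 V gene to a J gene, with a D gene between them in the beta chain, and every descendant of that T cell keeps the joined gene. The V gene encodes the first and second of the loops that meet the peptide and MHC molecule, and its 3′ end, from the second conserved cysteine on, opens the third loop (CDR3). Usage in a population of T cells therefore depends on how often each V gene is joined, on thymic selection and on which clones expand afterwards. In a lymphopenic host such as a Rag2-/- mouse, transferred naive CD4+ T cells divide extensively, and a part of them responds to gut antigens.

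The 3′ ends of the V segments carry the start of the CDR3 and tell the most used Trbv genes apart. Below are the last 60 bases of the V exon of the 8 most used Trbv genes, of Trbv15, which passed the test between organs, and of the pseudogene Trbv12-3, which lies between Trbv13-2 and Trbv13-3 (GRCm38 coordinates, all on the plus strand, transcript sequences of GENCODE). Capitals run from the codon of the conserved cysteine to the end of the exon, and none are set for the pseudogene.
Trbv13-2, chr6:41121773-41121832: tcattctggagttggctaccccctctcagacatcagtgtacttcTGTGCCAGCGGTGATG
Trbv3, chr6:41048769-41048828: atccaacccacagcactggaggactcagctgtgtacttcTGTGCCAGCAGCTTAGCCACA
Trbv13-3, chr6:41130526-41130585: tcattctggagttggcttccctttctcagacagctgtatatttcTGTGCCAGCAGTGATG
Trbv19, chr6:41178989-41179048: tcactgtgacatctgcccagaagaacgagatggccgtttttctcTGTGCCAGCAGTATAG
Trbv1, chr6:40891826-40891885: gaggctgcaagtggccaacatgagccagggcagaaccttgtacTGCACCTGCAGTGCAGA
Trbv13-1, chr6:41116409-41116468: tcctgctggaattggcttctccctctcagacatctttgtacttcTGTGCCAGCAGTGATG
Trbv16, chr6:41152171-41152230: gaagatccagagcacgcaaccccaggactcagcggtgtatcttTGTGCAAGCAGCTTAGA
Trbv2, chr6:41047936-41047995: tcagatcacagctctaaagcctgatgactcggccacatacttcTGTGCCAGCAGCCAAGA
Trbv15, chr6:41141599-41141658: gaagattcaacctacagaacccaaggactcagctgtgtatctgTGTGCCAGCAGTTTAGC
Trbv12-3, chr6:41128017-41128076: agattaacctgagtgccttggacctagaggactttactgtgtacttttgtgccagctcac
The cysteine codon was found in 21 of the 22 Trbv genes annotated as V genes, and in 13 of these it opened the run TGTGCCAGC. Trbv1 and Trbv16 were the exceptions among the genes printed, with TGCACCTGC and TGTGCAAGC. The 3 Trbv13 genes shared 86.1% to 91.8% of the bases of their V exons, and 32 of the 35 Trbv genes had no 75-base stretch, the length of a read, in common with another gene. The Trav locus of C57BL/6 mice holds large duplications, whose copies are marked d and n in the symbols, and it read differently. The V exons of Trav7-4 and Trav7d-4 differed at 1 of 292 bases, and 41 Trav genes had no 75-base stretch of their own. Reads that fit several places were not counted, and 37 of those 41 genes stood at 0 reads in all samples. In all, 49 Trav genes stood at 0 reads, among them Trav18, whose 75-base stretches were all its own. For the 37 genes, lack of use and lack of countable reads cannot be told apart.

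Each sample held 9363940 to 11283439 reads on genes, of which 1807 to 3698 fell on Trav genes and 4829 to 10929 on Trbv genes. At this depth the 95% Wilson interval of a share in 1 sample reached at most 1.42 percentage points to either side for Trav and 1.04 for Trbv, and a gene at 0 reads can hold up to 0.166% of Trav or 0.0621% of Trbv reads (3 reads). The intervals cover counting error only. Prkaa1 was at 46.3 to 60.9 CPM (reads of a gene per 1000000 reads on genes) in the 7 WT samples and 18.4 to 32.2 CPM in the 8 KO samples. The sorted cells carried Cd4 at 996 to 1299 CPM and Trac, the constant gene of the alpha chain, at 916 to 1359 CPM. Rag1, Rag2 and Dntt, which act in V gene joining, had at most 13 reads in any sample.

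A read was counted on 79 of the 128 Trav genes and 30 of the 35 Trbv genes in at least 1 sample. Pseudogenes took 3.38% of Trav and 0.419% of Trbv reads. A larger share of a V gene can mean more cells that carry it or more receptor RNA per cell, which cannot be told apart in bulk RNA.

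The 8 most used Trbv genes held 69.7% of Trbv reads on average. Trbv13-2 led with a mean share of 11.7% over the 15 samples, followed by Trbv3 (11.3%), Trbv13-3 (9.49%), Trbv19 (9.45%), Trbv1 (7.97%), Trbv13-1 (7.75%), Trbv16 (6.61%) and Trbv2 (5.47%). Per kilobase of exon, which sets genes of unequal length side by side, Trbv13-2 kept the first place at 13.7% and Trbv13-3 passed Trbv3, at 11.1% against 9.89%. Trbv31, the 1 functional Trbv gene that lies beyond the constant genes in the opposite orientation, held 5.05%.

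The means hid large differences between samples of 1 group. Trbv13-1 was the extreme case: its share was 4.22%, 7.04%, 11.9% and 5.18% in WT spleen 1 to 4 and 4.56%, 9.80%, 5.46% and 26% in KO spleen 1 to 4. The 26% of KO spleen 4 was the highest share of any V gene in the series, and the mLN sample with that number held 10.9%, against 4.65% to 6.29% in the other KO mLN samples. Trbv16 ranged from 0.667% in KO spleen 4 and 0.576% in KO mLN 4 to 19.3% in WT spleen 1 and 13.1% in WT mLN 1, so that its lowest and its highest pair of values each came from samples that share a number. Trbv30 took 5.69% in KO spleen 3 and 5.33% in KO mLN 3 and at most 1.07% in every other sample. Trbv14 showed the same form, with 5.44% and 4.74% in KO spleen 2 and KO mLN 2 and at most 1.42% elsewhere.

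Among the 18 Trbv genes with a mean share of at least 1%, the highest share in any sample was 2.10 times the lowest for Trbv2, the steadiest, and 56.1 times for Trbv17, with a median of 6.06 times. Trbv2 stayed between 3.86% and 8.08% in all 15 samples.

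**Figure D1:**
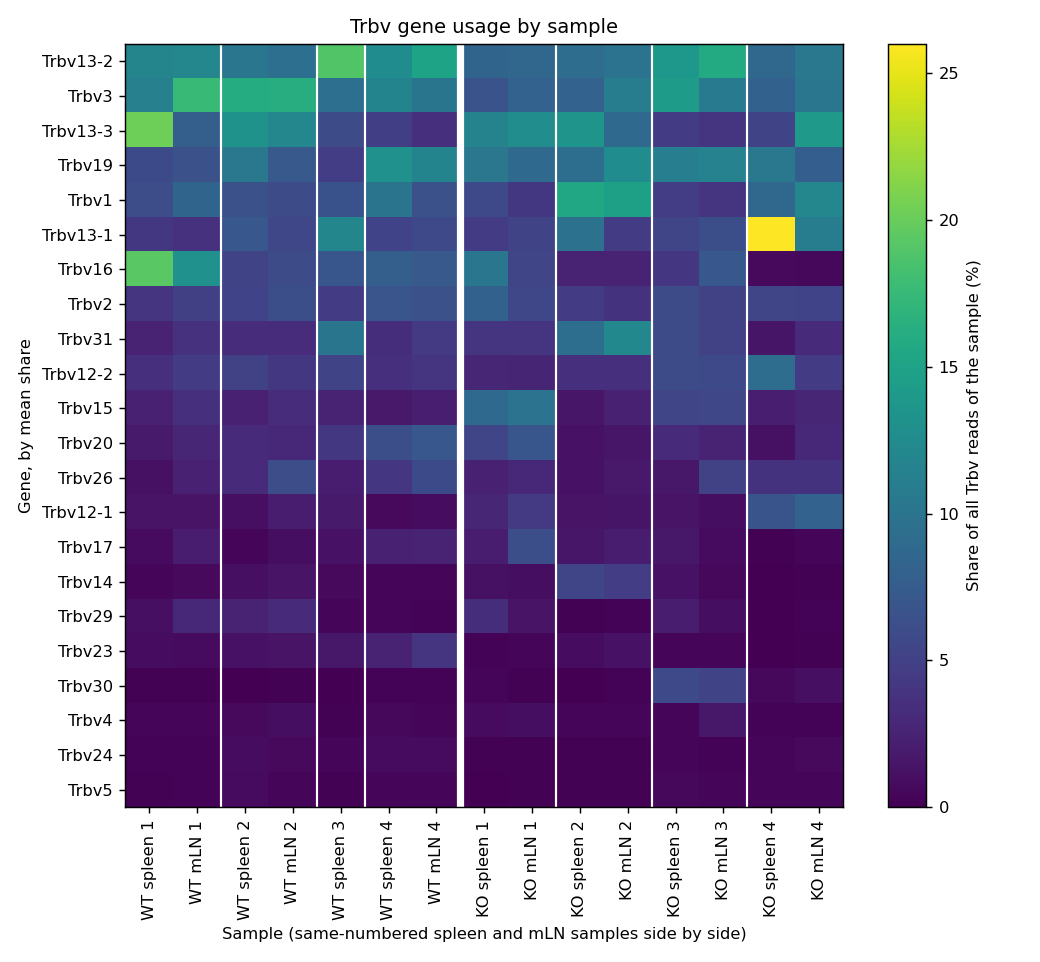
Share of all Trbv reads (%) of each gene with a mean share of at least 0.3% (rows) in each sample (columns), with same-numbered spleen and mLN samples side by side and WT left of the thick line. Bright fields such as Trbv13-1 in KO spleen 4 (26%) and Trbv16 in WT spleen 1 (19.3%) mark genes that were high in single samples, and Trbv30 stood out in the KO 3 pair (5.69% and 5.33%).

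Trav usage was spread over more genes. The 8 most used Trav genes held 43.3% of reads: Trav5-4 (mean 8.78%), Trav7d-4 (6.43%), Trav7-1 (5.55%), Trav7-4 (5.33%), Trav9d-1 (5.32%), Trav3-3 (5.02%), Trav7n-4 (4.09%) and Trav13n-4 (2.75%). Per kilobase of exon Trav5-4 was again first, at 9.71%. Genes marked d held 15.7% to 29.5% of Trav reads per sample and genes marked n held 10.1% to 24.9%. These shares, and those of Trav7-4, Trav7d-4 and Trav7n-4, rest on the bases in which the copies differ.

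Trav7-1 had 100% of its 75-base stretches to itself and reached the highest share of any Trav gene. Its highest share was 20.4 times its lowest, which among the 8 leading Trav genes was exceeded by Trav7n-4 at 32.2 times. It held 1.42%, 4.26%, 0.975% and 1.42% in WT spleen 1 to 4 and 2.49%, 5.16%, 6.34% and 19.9% in KO spleen 1 to 4. In mLN it held 2.10%, 4.14% and 1.32% in WT 1, 2 and 4 and 3.49%, 11.1%, 3.88% and 15.3% in KO 1 to 4. The highest value of each organ was thus in KO replicate 4, and the WT and KO values overlapped in both organs.

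Of Trav11, Trav11d and Trav1, the V genes looked at for NKT and MAIT cells, 1 could be read. Trav11 and Trav11d encode the V part of the invariant alpha chain of NKT cells. Their V exons are the same over all 290 bases that align, neither has a 75-base stretch of its own, and they could therefore not be read from these counts. Trav1, the V gene of the alpha chain of MAIT cells and readable throughout its length, held 0.165% to 2.32% of Trav reads. The share of a V gene alone does not tell which type of T cell carried it.

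Spleen and mLN samples with the same number used V genes alike, in both chains and both genotypes. The overlap of 2 samples was taken as the sum over genes of the smaller of the 2 shares, which is 100% for identical usage. For Trbv, the overlap was 80.7%, 91.0% and 90.7% in the WT pairs 1, 2 and 4, and 87.0%, 88.0%, 88.95% and 77.2% in the KO pairs 1 to 4. The other spleen and mLN pairs of 1 genotype ranged from 62.3% to 82.9%. The mean was 86.2% over the 7 same-numbered pairs and 72.3% over the 21 others, a difference of 13.9 percentage points (1-sided exact permutation test over all assignments of mLN to spleen samples within genotype, p = 0.00174, the smallest that the 576 assignments allow, adjusted p = 0.00347 over the 4 gene groups tested). Trav usage differed in the same way, with 75.4%, 83.3% and 88.0% in the WT pairs, 85.2%, 80.9%, 74.9% and 81.4% in the KO pairs and 53.5% to 73.4% in the others. Its mean was 81.3% against 65.1%, a difference of 16.2 percentage points (exact permutation p = 0.00174, adjusted p = 0.00347). Within each genotype alone, the same-numbered assignment gave the highest mean of all 24 assignments in both chains (exact permutation p = 0.0417, the smallest possible). The difference was 14.7 points in WT and 17.4 points in KO for Trav, and 10.9 and 16.1 points for Trbv.

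**Figure D2:**
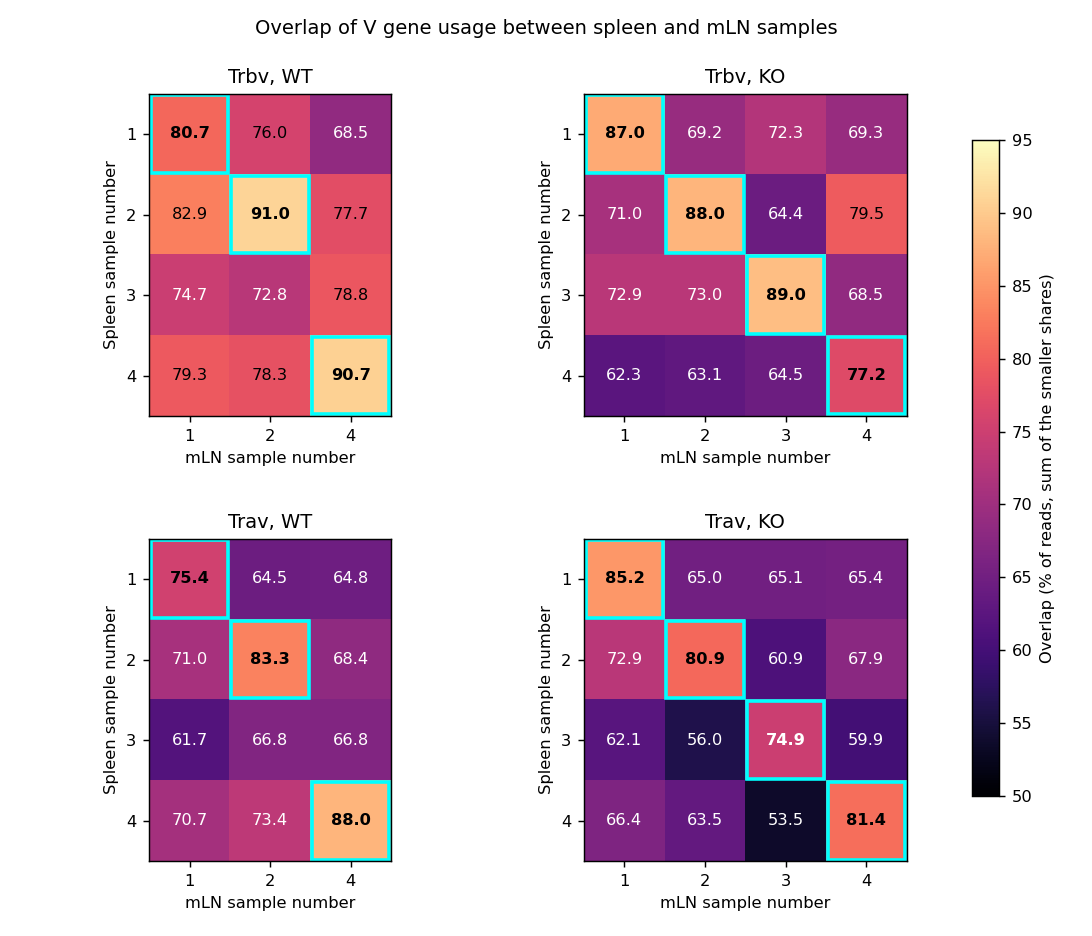
Overlap of V gene usage (%, sum of the smaller shares) between each spleen sample (rows) and each mLN sample (columns) of 1 genotype, for Trbv (top) and Trav (bottom), with same-numbered pairs framed. The framed fields are the highest of their column in 7 of 7 columns for Trav and 5 of 7 for Trbv, where WT mLN 1 and KO mLN 4 are the exceptions.

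For Trav, each of the 7 mLN samples shared most with the spleen sample of its own number among the spleen samples of its genotype, and 6 of the 7 did so among all 14 other samples. For Trbv these counts were 5 and 5. WT mLN 1 overlapped by 82.9% with WT spleen 2 and by 80.7% with WT spleen 1, and KO mLN 4 by 79.5% with KO spleen 2 and by 77.2% with KO spleen 4. In both of these pairs the leading Trbv gene of the spleen was lower in the mLN. Trbv13-3 was at 20.2% in WT spleen 1 and 7.90% in WT mLN 1, and Trbv13-1 at 26% in KO spleen 4 and 10.9% in KO mLN 4. The leading spleen gene was also lower in mLN, by less, in WT 4 (Trbv19, 13.2% and 11.8%), KO 3 (Trbv3, 14.3% and 10.8%) and KO 2. In 3 of the 7 pairs the same Trbv gene led in both organs: Trbv3 in WT 2 (16.1% and 16.2%), Trbv13-3 in KO 1 (11.6% and 12.8%) and Trbv1 in KO 2 (15.5% and 14.8%).

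Shares of reads on J genes, taken as J usage here, set the same-numbered pairs apart by less. The mean overlap of Traj usage was 82.4% in same-numbered and 80.3% in other pairs (difference 2.11 points, exact permutation p = 0.0104, adjusted p = 0.0139), and that of Trbj usage was 90.4% and 88.1% (difference 2.22 points, exact permutation p = 0.0226, adjusted p = 0.0226). The Traj difference was 0.536 points in WT (exact permutation p = 0.25) and 3.30 points in KO (exact permutation p = 0.0417), and it was 1.26 points without KO replicate 2 and 1.29 points without KO replicate 1. For Trbj it was 2.52 points in WT and 2.001 points in KO (exact permutation p = 0.125 in each). The Trbj result rested on single replicates: without WT replicate 1 the difference was 1.96 points and without KO replicate 4 it was 1.31 points, each at an exact permutation p = 0.0903. Reads on J genes were fewer, at 976 to 1604 for Traj and 606 to 1319 for Trbj per sample. Genes annotated as pseudogenes held part of them, with a mean share of 7.63% for Traj8 and 8.27% for Trbj2-6. Whether the J reads came from joined receptor genes was not tested.

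Counted gene by gene, 69 of the 73 V genes that passed edgeR's filter over the 15 samples lay closer in same-numbered than in other spleen and mLN pairs, by the mean absolute difference of their log2 CPM values after group means were taken off. This held for 22 of 22 Trbv genes and 47 of 51 Trav genes, and for 65.5% of the 15438 genes tested. The 4 exceptions were Trav13n-4, Trav9-1, Trav6-5 and Trav13-1. The median difference of the V genes was 0.461 on the log2 scale in same-numbered pairs and 0.966 in other pairs, against 0.211 and 0.252 over all genes tested. The deviations of same-numbered samples from their group means correlated across Trbv genes with r between 0.621 (WT 1) and 0.924 (KO 2), and across Trav genes with r between 0.561 (WT 2) and 0.771 (KO 1). Other spleen and mLN pairs of a genotype reached at most r = 0.292 across Trbv genes and 0.212 across Trav genes. Over all genes, r was 0.243 to 0.291 in the WT pairs and 0.0258 to 0.259 in the KO pairs. There KO spleen 1 had a higher r with KO mLN 3 (0.103) than with KO mLN 1 (0.0409). KO spleen 3 had a higher r with KO mLN 1 (0.0405) than with KO mLN 3 (0.0258). Genes are not independent replicates, and no test was made on these correlations.

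**Figure D3:**
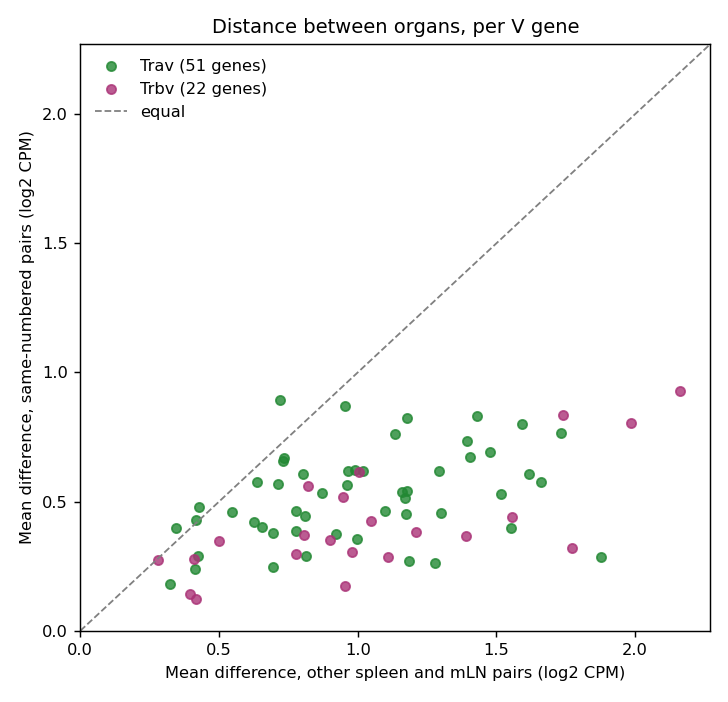
Mean absolute difference (log2 CPM, group means taken off) between spleen and mLN samples for each of 51 Trav and 22 Trbv genes, in other pairs (x axis) and same-numbered pairs (y axis). Points under the dashed line, 47 Trav and 22 Trbv genes, were closer in same-numbered pairs.

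Evenness of usage did not differ detectably between WT and KO T cells. It was measured as the effective number of genes, the exponential of the Shannon entropy of the shares, which is the number of equally used genes with the same entropy. In spleen, the effective number of Trbv genes was 11.5, 14.4, 13.5 and 14.6 in WT 1 to 4 and 15.5, 13.1, 15.3 and 11.03 in KO 1 to 4, so the groups overlapped over almost their whole range. The mean was 13.5 (SD 1.41, n = 4) for WT and 13.7 (SD 2.10, n = 4) for KO (2-sided exact permutation p = 0.80, adjusted p = 0.80 over 4 comparisons). In mLN, with values of 13.9, 15.5 and 14.98 in WT 1, 2 and 4 and 15.7, 13.4, 15.2 and 13.3 in KO 1 to 4, the mean was 14.8 (SD 0.853, n = 3) for WT and 14.4 (SD 1.21, n = 4) for KO (exact permutation p = 0.629, adjusted p = 0.80). The sample with the lowest number, KO spleen 4, was the one in which Trbv13-1 held 26%.

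For Trav the KO means were the lower ones in both organs, with ranges that overlapped and p-values that did not pass. In spleen the effective number was 31.4, 39.6, 33.7 and 36.2 in WT and 31.5, 31.1, 35.5 and 22.5 in KO, with means of 35.2 ± 3.54 (SD, n = 4) and 30.2 ± 5.47 (SD, n = 4; exact permutation p = 0.171, adjusted p = 0.343). In mLN it was 33.2, 37.2 and 38.7 in WT and 31.0, 29.99, 34.3 and 28.0 in KO, with means of 36.4 ± 2.85 (SD, n = 3) and 30.8 ± 2.62 (SD, n = 4; exact permutation p = 0.114, adjusted p = 0.343). The mLN difference of 5.54 was larger than either SD, with 1 KO value above the lowest WT value, and with 3 samples against 4 no p below 0.0571 was possible. The spleen difference of 5.05 fell to 2.51 without KO replicate 4. The change from spleen to mLN in same-numbered samples did not differ detectably between the genotypes either, at 0.636 in WT and 0.667 in KO for Trav and 1.33 and 0.682 for Trbv (exact permutation p = 1 and 0.343, adjusted p = 1 and 0.686, smallest possible 0.0571).

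**Figure D4:**
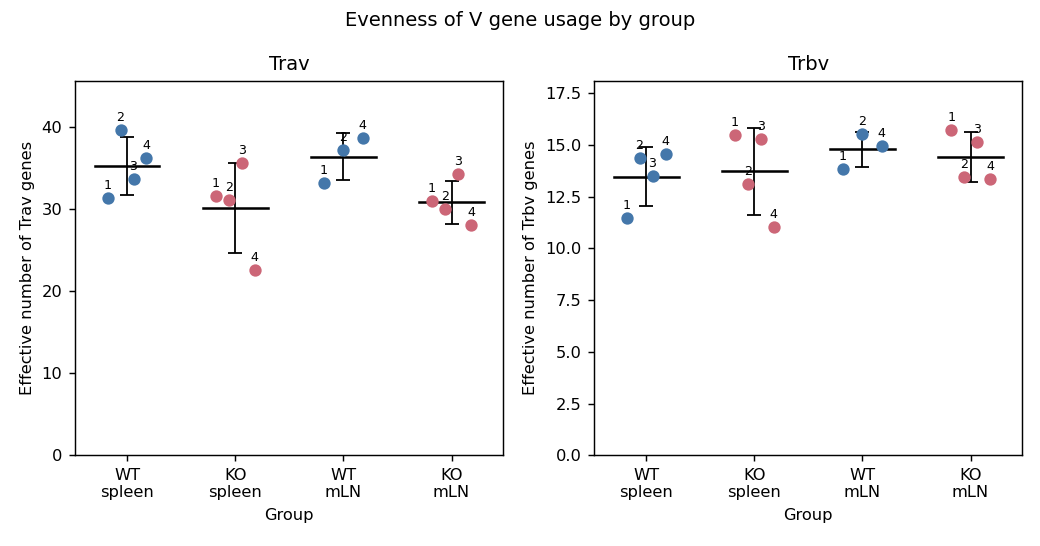
Effective number of Trav genes (left) and Trbv genes (right) in each sample, with replicate numbers, and the mean (line) ± SD (bar) of each group, WT in blue and KO in red. KO spleen 4 is the lowest point in both panels, at 22.5 and 11.03, and the ranges of WT and KO points overlap in each organ and chain.

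Usage of mLN samples was not detectably more or less even than that of spleen samples. The mean difference was 0.912 effective Trav genes (exact permutation within genotype, p = 0.649, adjusted p = 0.649) and 0.999 effective Trbv genes (p = 0.209 by the same exact test, adjusted p = 0.418). Taken over the 7 same-numbered pairs, Trbv usage was more even in mLN by 0.959 effective genes (exact permutation of signs, unadjusted p = 0.0313), and the Trav difference was 0.654 (p = 0.562 by the same exact test).

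V gene usage was not detectably more alike within a genotype than between the genotypes. Within an organ, the mean overlap of Trbv usage was 70.7% between samples of 1 genotype and 71.1% between the genotypes in spleen (1-sided exact permutation p = 0.629, adjusted p = 0.714 over 4 comparisons), and 73.6% and 74.5% in mLN (exact permutation p = 0.714, adjusted p = 0.714). For Trav it was 64.6% within and 62.2% between in spleen (exact permutation p = 0.0857, adjusted p = 0.286), and 67.0% and 64.7% in mLN (exact permutation p = 0.143, adjusted p = 0.286). With 1 replicate left out, the Trav difference between minus within ran from -4.58 (without KO replicate 3) to -1.11 points (without WT replicate 2 or KO replicate 4) in spleen, and from -6.80 (without KO replicate 3) to -0.752 points (without WT replicate 1) in mLN.

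Tested gene by gene with edgeR's quasi-likelihood test on the counts, 0 of 66 V genes passed an adjusted p of 0.05 between KO and WT in spleen, where 1.3% of all 14254 genes passed, and 0 of 73 in mLN, where 0.641% of 14359 passed. At an unadjusted p under 0.05 there were 15 V genes in spleen (22.7%, against 20.5% of all genes) and 11 in mLN (15.1%, against 15.7%). DESeq2 called 4 of 69 in spleen (among them Trav13-1, Trav21-dv12 and Trav7-1), where it called 5.32% of all genes, and 2 of 69 in mLN (Trav3-3 and Trav6d-5), where it called 4.2%. These shares were near those of all genes. With no filter on low counts edgeR called 26 of 100 V genes in spleen and 17 of 105 in mLN, against 4.03% and 2.71% of all genes. With the filter kept and without WT spleen replicate 3, edgeR called 1 V gene, Trav21-dv12, just under the limit (adjusted p = 0.0498). The share of all genes is not given for this smaller fit. The V genes with the smallest p were Trav13-1 in spleen (log2 fold change -1.38, adjusted p = 0.0646) and Trav3-3 in mLN (log2 fold change -1.33, adjusted p = 0.0833). Trav3-3 stood at 28.3, 31.2 and 14.7 CPM in WT mLN 1, 2 and 4 and at 6.67, 7.53, 14.5 and 10.97 CPM in KO mLN 1 to 4, so the highest KO value lay just under the lowest WT value. Trav7-1 was higher in KO spleen by 2.41 on the log2 scale (adjusted p = 0.093), and by 1.37 without KO replicate 4.

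The size of these differences came with a wide spread between replicates. The median absolute log2 fold change of the V genes was 0.507 in spleen and 0.572 in mLN, against 0.156 and 0.206 over all genes tested. Their median coefficient of variation between replicates, as edgeR estimates it beyond counting error, was 47.9% in spleen and 47.1% in mLN, against 13.8% and 18.9% over all genes. It lay above edgeR's trend for genes of like abundance in 61 of 66 V genes in spleen and 60 of 73 in mLN, where 23.7% and 30.7% of all genes did.

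The total of V gene reads was higher in mLN than in spleen in both genotypes. Trav reads per 1000000 reads on genes (RPM) were at 193 to 277 in spleen and at 278 to 330 in mLN, and Trbv reads at 516 to 787 RPM in spleen and 717 to 985 RPM in mLN. All 7 same-numbered pairs had more of both in mLN. The mean rose from 233 to 298 RPM for Trav (27.9% higher) and from 670 to 829 for Trbv (23.7% higher), each at an exact permutation p = 0.000816, the smallest possible (adjusted p = 0.00163 over 4 gene groups). This comparison was added after the values had been seen. For J gene reads the same test did not pass, with 116 RPM in spleen and 112 RPM in mLN for Traj (exact permutation p = 0.549, adjusted p = 0.549) and 83.5 and 88.6 RPM for Trbj (exact permutation p = 0.375, adjusted p = 0.501). Of the 7 same-numbered pairs, Trbj was higher in mLN in 6 and Traj in 2.

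**Figure D5:**
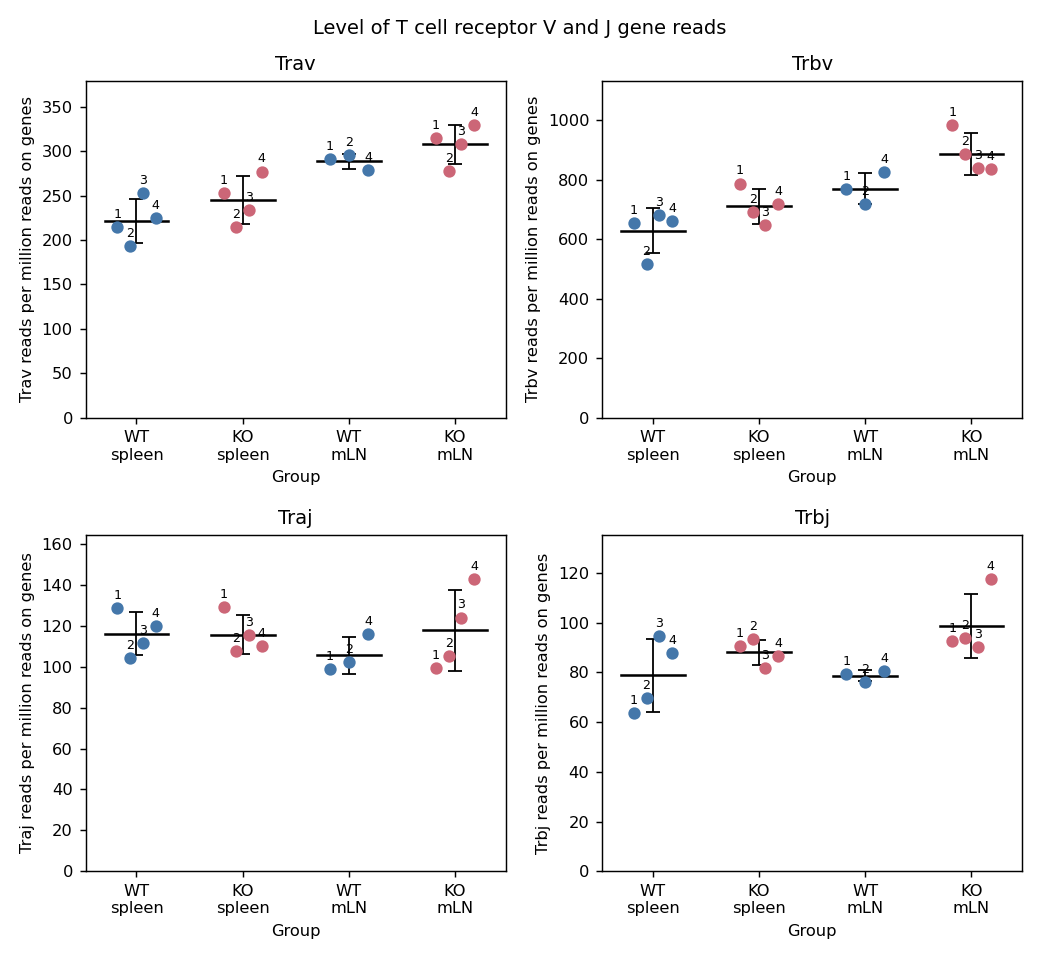
Reads on Trav, Trbv, Traj and Trbj genes (RPM) in each sample, with replicate numbers, and the mean (line) ± SD (bar) of each group, WT in blue and KO in red. Within each genotype every mLN point of Trav and Trbv lies above every spleen point, whereas the Traj and Trbj points of the organs overlap.

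The genes of the receptor complex were read beside this. Of 8 genes for the receptor's constant regions, the CD3 chains and CD4, edgeR called 2 higher in mLN in WT T cells, Trbc2 (log2 fold change 0.48, adjusted p = 0.0264) and Cd3d (0.46, adjusted p = 0.0137). In KO T cells it called 5 higher (Trac, Trbc1, Trbc2, Cd3d and Cd247) and 1 lower (Cd3e, log2 fold change -0.23, adjusted p = 0.0247). In the same comparisons 20.5% of all genes were called in WT and 25.3% in KO T cells, in either direction. The 2 of 8 in WT T cells were thus near the share of all genes. Some markers of other cells moved with the organ too. The 4 constant genes of gamma delta T cells summed to 83.4 to 101.5 CPM in WT spleen and 50.6 to 61.95 CPM in KO spleen. In mLN they summed to 161 to 193 CPM in WT and 107 to 227 CPM in KO T cells. Tcrg-C1, Tcrg-C2 and Tcrg-C4 were called higher in mLN in each genotype. Trdc, the constant gene of the delta chain, had 14 to 225 reads in a sample and was called in neither genotype. Its log2 fold change by edgeR was -0.36 in WT (adjusted p = 0.769) and 0.51 in KO T cells (adjusted p = 0.545). Cd8a and Cd8b1 summed to 1.61 to 5.11 CPM in spleen, 7.18 to 11.6 CPM in WT mLN and 18.9 to 28.2 CPM in KO mLN. Cd8a was called higher in KO mLN than in KO spleen (log2 fold change 4.43, adjusted p = 3.18e-05), and Cd8b1 was called in neither genotype. In WT mLN 1, 2 and 4, Cd8a had 60, 86 and 3 reads. Between KO and WT mLN, edgeR did not call Cd8a (log2 fold change 1.93, adjusted p = 0.166). Of the B cell genes, Ighm, the constant gene of the IgM heavy chain, was at 37.0 to 177 CPM in spleen and 171 to 543 CPM in mLN, where Ms4a1 was at 0 reads. The NK cell list summed to 3.10 to 12.9 CPM in spleen and 3.47 to 12.46 CPM in mLN, and the macrophage and dendritic cell list to 103 to 304 CPM and 39.8 to 190 CPM. Of the latter list, 1 gene was called higher and 3 lower in KO mLN than in KO spleen. The part of these in the V gene levels was not tested.

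Single V genes reached the threshold between organs in few cases. In WT T cells, 3 of 72 V genes passed, all higher in mLN, where 20.5% of all 14515 genes passed. Trbv3 was at 73.8, 82.9, 64.7 and 77.3 CPM in WT spleen 1 to 4 and at 135, 116 and 83.0 CPM in WT mLN 1, 2 and 4, without overlap (log2 fold change 0.62 ± 0.15 SE, adjusted p = 0.0201). Trbv15 was at 15.8, 12.49, 17.7 and 11.7 CPM in spleen and at 27.7, 23.5 and 17.7 CPM in mLN, where the lowest mLN value met the highest spleen value (0.71 ± 0.21 SE, adjusted p = 0.0405). Trav3-3 was at 12.6, 14.1, 9.39 and 16.2 CPM in WT spleen and, as given above, was higher in WT mLN with 1 value in the spleen range (0.96 ± 0.26 SE, adjusted p = 0.0303). The count of 3 was 0 without WT spleen 1 or WT mLN 2, 1 without WT spleen 2 or WT mLN 1, and 5 without WT spleen 4. None of the 3 genes kept an adjusted p below 0.05 in every one of these. The share of all genes that passed in these smaller fits is not given. The counts therefore show only how the calls depend on single samples.

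In KO T cells 1 of 68 V genes passed, where 25.3% of all 14240 genes passed. Trav7-4 was at 11.7, 7.87, 8.66 and 13.6 CPM in KO spleen 1 to 4 and at 17.4, 15.98, 43.5 and 16.7 CPM in KO mLN 1 to 4 (log2 fold change 1.16 ± 0.33 SE, adjusted p = 0.0236). Trav7-4 missed the threshold without KO spleen 2 (adjusted p = 0.0709) or KO spleen 3 (0.0676). Without single samples the count was 2 (KO spleen 1, 3 or 4, or KO mLN 2), 3 (KO spleen 2) or 4 (KO mLN 4). The share of all genes is again not given for these smaller fits. Most V genes pointed the same way, those that passed included: 59 of 72 were higher in mLN in WT T cells and 57 of 68 in KO T cells. Their median log2 fold changes over all V genes tested were 0.49 and 0.43, against 0.00 and 0.01 over all genes tested.

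With the replicate number as a block, which compares each mLN sample with the spleen sample of its number, 20 of 72 V genes passed in WT T cells (27.8%) and 11 of 68 in KO T cells (16.2%), all of them higher in mLN. In the same fit 30% of all genes passed in WT and 26.8% in KO T cells, in either direction, so the shares of V genes were not above those of all genes. Without the block but with no filter on low counts, 18 of 99 V genes passed in WT (10.8% of all genes) and 19 of 105 in KO T cells (11.7%). With all 15 samples in 1 fit, 1 of 73 passed in WT (22.6% of all genes) and 0 of 73 in KO T cells (24.5%), and DESeq2 called 3 of 77 (19.1%) and 5 of 80 (21.9%). WT spleen 3 has no partner and adds nothing to the blocked fit. Among the 20 were 12 Trbv genes and among the 11 were 7, and these 7 (Trbv3, Trbv12-1, Trbv13-2, Trbv15, Trbv20, Trbv26 and Trbv31) were all among the 12. Trbv26 rose by 1.19 ± 0.15 SE in WT (adjusted p = 0.000506) and 0.87 ± 0.24 SE in KO (adjusted p = 0.024) on the log2 scale. It stood at 7.96, 16.2 and 27.4 CPM in WT spleen 1, 2 and 4 and at 18.5, 43.8 and 47.9 CPM in the mLN samples with those numbers. In KO 1 to 4 it stood at 18.7, 8.85, 11.01 and 27.5 CPM in spleen and 28.0, 15.7, 41.8 and 31.9 CPM in mLN, so it was higher in mLN in every pair. Trbv13-2, the most used Trbv gene, rose by 0.46 ± 0.09 SE in WT (adjusted p = 0.00474) and 0.46 ± 0.08 SE in KO (adjusted p = 0.00205). Trbv26 was named for its values after they had been seen.

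Between the genotypes, total V gene reads were higher on average in KO T cells in both organs, and no difference passed the test. In spleen, Trbv reads averaged 628 RPM in WT T cells (SD 75.8, n = 4) and 711 RPM in KO T cells (SD 58.3, n = 4, exact permutation p = 0.143, adjusted p = 0.267 over 4 comparisons). In mLN they averaged 771 RPM in WT T cells (SD 53.7, n = 3) and 886 RPM in KO T cells (SD 69.7, n = 4), where every KO value lay above every WT value (exact permutation p = 0.0571, the smallest possible, adjusted p = 0.229). Trav reads averaged 221 RPM in WT spleen (SD 24.9, n = 4) and 245 RPM in KO spleen (SD 26.8, n = 4, exact permutation p = 0.20, adjusted p = 0.267). In mLN, Trav reads averaged 289 RPM in WT T cells (SD 8.70, n = 3) and 308 RPM in KO T cells (SD 22.0, n = 4, exact permutation p = 0.286, adjusted p = 0.286). With 1 replicate left out, the KO minus WT difference in Trbv reads ran from 45.8 (without WT replicate 2) to 104 RPM (without KO replicate 3) in spleen and from 83.2 (without KO replicate 1) to 143 RPM (without WT replicate 4) in mLN. For Trav reads it ran from 12.8 (without KO replicate 4) to 34.05 RPM (without WT replicate 3) in spleen and from 11.6 (without KO replicate 4) to 29.0 RPM (without KO replicate 2) in mLN. Among the 4 gamma delta genes, edgeR called only Tcrg-C2 lower in KO than in WT spleen (log2 fold change -0.52, adjusted p = 0.0475). Tcrg-C1 and Trdc were lower and Tcrg-C4 higher in KO spleen without being called (adjusted p = 0.277, 0.224 and 0.682). The WT and KO sums given above did not overlap in spleen. Tcrg-C2 was the largest part of those sums, with means of 56.0 CPM in WT and 38.6 CPM in KO spleen. Of the 8 receptor complex genes, 0 were called by edgeR between KO and WT in either organ, where 1.3% (spleen) and 0.641% (mLN) of all genes were.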

How the data were processed

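RNA of sorted CD4+ T cells from 15 samples was sequenced in single reads of 75 bases. The authors aligned the reads with STAR 2.6.1a to GRCm38 with GENCODE M23 and deposited raw counts per gene of uniquely aligned reads, without normalization. Whether strand was used in counting is not given in the sources used here, so overlapping and antisense genes are uncertain. A median of 60.9% of uniquely aligned reads lay on no gene, and these and the other rows that name no gene were left out. The submitters' processing notes also name bcl2fastq 2.19.1.403, RSEM and DESeq2 1.22.2. The study's own sequencing of beta chains was not used here.

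Symbols, exons and sequences came from GENCODE M21 on the same build, where 55154 of 55421 genes were matched. The members, the gene lists and the tests were chosen with earlier results of these data known. Named genes are the 8 most used per chain, those past the threshold, the highest in any sample, and Trav1, Trav11 and Trav11d. Others, such as Trbv14, Trbv26, Trbv30 and the V genes with the smallest p, were chosen after their values were seen. Shares, effective numbers and overlaps were compared by exact permutation over samples (Python 3.11.15, numpy 2.4.6, pandas 2.3.3). Counts were tested with edgeR 4.0.16 in R 4.3.3 in the samples of each comparison (filter on low counts, TMM, quasi-likelihood test, Benjamini-Hochberg adjustment over all genes tested, limit 0.05), with DESeq2 1.42.0 as an alternative. The scripts were tested on simulated data first. Other alternatives were gene families, functional genes, read minimums, reads per length or per unique stretch, other indices, Pearson r of log2 shares (0.1 percentage points added), other scalings and fits, and each replicate left out.

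The labels number the replicates, and same-numbered samples were checked for a pairing. Across organs, deviations from the group means correlated with r of 0.243 to 0.291 over all genes in the WT pairs, each above 0.1, and with 0.0258 to 0.259 in the KO pairs, of which KO 1 and KO 3 were below 0.1. Over V genes every pair of both genotypes was above 0.1. Same-numbered WT and KO samples of 1 organ had r of -0.21 to 0.146.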

Additional observations from a re-analysis of the deposited data

Results flagged for a closer look

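In groups of 4 samples, 66 values were checked for a sample far from the others by Dixon's criterion, which chance meets in about 5% of groups, and 8 met it. In WT spleen, Trav5-4 held 10.9% in replicate 4 (others 7.58% to 8.05%), Trav7d-4 14.3% in replicate 3 (others 1.81% to 2.76%) and Trav7-1 4.26% in replicate 2 (others 0.975% to 1.43%). Trbv1 held 10.03% in WT spleen 4 (others 6.13% to 6.53%), and Trbv reads stood at 516 RPM in WT spleen 2 (others 654 to 682 RPM). In KO spleen, Trbv13-2 held 13.9% in replicate 3 (others 8.41% to 9.27%). In KO mLN, replicate 3 was high in Trav7-4, at 14.1% (others 5.06% to 5.75%), and low in Trav7n-4, at 0.417% (others 3.97% to 4.10%). The 2 genes are near-identical copies, and KO spleen 3 was also low in Trav7n-4 (0.642%) while Trav7-4 was at 3.69% there.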

How the results depend on the processing

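The higher overlap of same-numbered spleen and mLN samples kept its direction and a p below 0.05 for Trav, Trbv and Traj under every alternative run, and for Trbj except where 1 replicate was left out (range 1.31 to 2.79 points). The organ difference in Trav and Trbv RPM also held under every alternative run. None of the differences between genotypes in evenness, overlap or total V reads passed under any alternative, which says little with 3 or 4 samples. Signs turned in several of them. With the inverse Simpson index the mLN minus spleen difference in Trav was -0.541, its difference between genotypes -0.607, and the KO minus WT difference in Trbv in mLN 0.0824. By families the first 2 were -0.159 and -0.198. The difference between genotypes in the Trav change was -0.172 without pseudogenes, -0.0104 with genes of at least 10 reads on average and -1.99 with reads per unique stretch, which was chosen after seeing the data. By Pearson r of log2 shares the Trbv overlap between genotypes minus within in spleen was -0.00961. With 1 replicate left out, the Trav difference between genotypes ran from -1.58 to 0.972, the Trbv KO minus WT difference from -0.403 to 1.17 in spleen and -0.835 to 0.00344 in mLN, the Trbv overlap between genotypes minus within from -1.80 to 2.76 and -2.12 to 3.71 points, and Traj RPM in mLN minus spleen from -9.20 to 1.18.

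V genes called between KO and WT numbered 4 in spleen and 2 in mLN with DESeq2 (5.8% and 2.9% of those tested, against 5.32% and 4.2% of all genes). With no filter on low counts they numbered 26 and 17 (26% and 16.2% of those tested, against 4.03% and 2.71% of all genes). With 1 sample left out they numbered 0 to 1 in spleen. Between organs in WT T cells they numbered 18 with no filter (18.2% of those tested, against 10.8% of all genes). With all 15 samples in 1 fit they numbered 1 (1.37% of those tested, against 22.6% of all genes). They numbered 0 with an absolute log2 fold change above 1 as well, and 0 to 5 with 1 sample left out. In KO T cells they numbered 5 with DESeq2 (6.25% of those tested, against 21.9% of all genes) and 19 with no filter (18.1%, against 11.7%). They numbered 0 with all 15 samples in 1 fit (24.5% of all genes), and 1 to 4 with 1 sample left out. The share of all genes is not given for the fold change limit or with 1 sample left out. With the replicate block they numbered 20 in WT and 11 in KO T cells between organs (27.8% and 16.2% of those tested, against 30% and 26.8% of all genes), and the Trbv mLN minus spleen difference in evenness became 0.959 with an exact permutation p = 0.0313. The replicate block changed no other call, and same-numbered WT and KO samples share only a number. Between genotypes, evenness and total V reads had too few such pairs for any p below 0.05. The block could therefore not have changed those calls. The causes of these changes were not tested. Genes without a stretch of their own cannot be read in the Trav results.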
